A study of Homo sapiens with 6 samples.

Results

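The 46 genes described here are interferon-stimulated genes, taken by symbol for their known roles as STAT and IRF factors or as interferon-induced effectors, with no value in the rule. Genes absent from the deposited table were dropped by the rule, so the presence of all 46 in it is no result. The table holds 19792 genes. RNA-seq was carried out on BT-549/tet-WDR5shRNA cells, a mesenchymal triple-negative breast cancer line carrying a puromycin-selected, doxycycline-inducible short hairpin RNA against WDR5. WDR5 is a shared core subunit of the complexes that methylate lysine 4 of histone H3. Cultures were treated with 0.1% DMSO as vehicle (3 libraries) or with 500 ng/ml doxycycline (DOX, 3 libraries). Both groups therefore carry the hairpin vector and differ in the inducer as well as in the hairpin. No DMSO is named for the DOX cultures.

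The values used are the authors' mean normalized counts over all 6 libraries, 1 value a gene, and the word level stands for that value below. A level therefore averages vehicle and DOX cultures, and the DOX effect on these genes was not tested here. Since 3 of the 6 libraries belong to each group, the mean of either group can be at most 2 times the level. No value of a single library is used, except where the reads of a low gene could be recovered without knowing which library is which. The spread between cultures is not seen in a mean, so no difference between genes was tested, and the errors given cover counting alone. For 45 of the 46 genes the 95% counting error was between 0.440% and 5.46% of the level. It was largest for IFITM2, at 14.2% when taken, like the others, from the least number of reads that the level allows.

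Interferons bind receptors on the cell surface, and the receptors activate JAK kinases, which phosphorylate STAT proteins. A complex that contains STAT2 and IRF9 then binds the interferon-stimulated response element (ISRE), whereas STAT dimers bind the gamma-activated site (GAS). Many of the induced genes encode proteins that sense, bind or degrade viral RNA, block viral entry or release, or attach the ubiquitin-like protein ISG15 to other proteins.

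The promoters of the genes show what they share in sequence. RefSeq promoters of GRCh38.p14, running from 250 bases before to 50 bases after a transcription start, were held for 37 of the 46 genes. IRF7, IFIT2, IFITM2, MX2, OAS2, OASL, DHX58, USP18 and TRIM22 had no entry, and DDX58 was matched under the symbol RIGI. The ISRE core was searched as GAAANNGAAA on either strand, which reads TTTCNNTTTC on the other. Of the 37 genes, 24 (64.9%) held the core, against 1195 of 27305 genes (4.38%) in the same table. With 1 more fixed base (GAAANNGAAAC), 20 genes (54.1%) held it, against 0.952% of all genes. The following windows show the core in capitals, 5′ to 3′ along the strand of the gene, for the genes with a core that were highest per kilobase of merged exons (IFI6 to IFIT1), for a core that a pair of neighbouring genes share, and for the lowest gene with a core.
IFI6, chr1:27672288-27672317, minus strand: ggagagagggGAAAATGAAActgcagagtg
IFI6, chr1:27672329-27672358, minus strand: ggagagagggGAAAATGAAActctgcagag
IFITM1, chr11:314024-314053, plus strand: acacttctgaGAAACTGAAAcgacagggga
BST2, chr19:17405741-17405770, minus strand: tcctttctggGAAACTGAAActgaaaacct
ISG15, chr1:1013380-1013409, plus strand: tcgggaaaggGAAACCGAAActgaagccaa
IFITM3, chr11:320876-320905, minus strand: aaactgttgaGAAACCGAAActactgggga
IFI44, chr1:78649761-78649790, plus strand: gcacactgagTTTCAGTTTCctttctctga
IFIT3, chr10:89332468-89332497, plus strand: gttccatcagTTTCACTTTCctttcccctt
IFIT1, chr10:89392510-89392539, plus strand: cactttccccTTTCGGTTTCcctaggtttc
DTX3L, chr3:122564322-122564351, plus strand: ccagggaagcGAAACTGAAActttgcgccc
PARP9, chr3:122564322-122564351, minus strand: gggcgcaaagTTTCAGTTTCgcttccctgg
ISG20, chr15:88638937-88638966, plus strand: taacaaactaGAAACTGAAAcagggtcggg

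The 24 genes held 44 distinct core positions, 1 of them shared by a pair of genes, and 15 genes held 2 or more. In 17 genes a core began within 100 bases before the start. In IFI6 the cores began 93, 115 and 156 bases before the start, and in ISG15 they began 107 and 113 bases before it, so that the ISG15 copies overlap. IFITM1 had a core 6 bases before its start and another 40 bases before it. DTX3L and PARP9, which are transcribed away from each other, share 1 core that begins 6 bases before the start of DTX3L and 41 bases before that of PARP9. The GAS, searched as TTCNNNGAA, was found in 10 of the 37 genes (27.0%), against 9.38% of all genes. In 5 of them the GAS letters overlapped those of an ISRE core, so the motifs are not separate counts. The 10 genes include IRF1 and IRF9, neither of which held an ISRE core, and 9 genes, among them STAT2 and ADAR, held neither motif. A match is a run of letters and was not tested as a binding site. Only these exact letters within the promoters held were searched, so a gene without a match is not shown to lack an element.

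**Figure D1:**
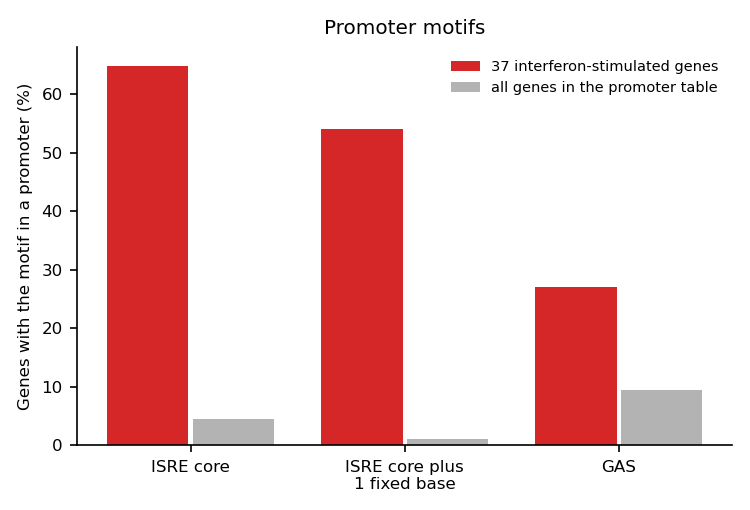
Percent of genes with each motif in a RefSeq promoter, for the 37 interferon-stimulated genes with a promoter (red) and all genes in the promoter table (grey). The ISRE core was found in 64.9% against 4.38%, the core with 1 more fixed base in 54.1% against 0.952%, and the GAS in 27.0% against 9.38%.

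As a group the genes stood high among all transcripts. Their levels summed to 441995, which is 1.66% of the sum over all genes, although they make up 0.232% of the genes listed. The median level of the 46 genes was 6362, against 676.7 for the 13548 genes with a level of at least 10. All 46 had a level of at least 10, as did 68.5% of all genes, and 29 had a level of at least 5000, as did 5.55% of all genes. By normalized reads alone, without regard to length, MX1 took the most at 45104, rank 32 of all genes. MX1 encodes a GTPase that blocks viral replication. Next came IFITM1 at 31369, IFI6 at 25462, OAS2 at 24078 and ADAR at 23430. The 10 genes with the most reads held 53.7% of the summed level of the 46.

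Long transcripts give more reads, so genes are compared below by level per kilobase of exon. The length was that of all annotated exons of a gene merged (GENCODE 44) and, alternatively, that of its Ensembl canonical transcript. The second length, which was added after the data were seen, moved 28 of the 46 genes by more than 1.5 times. Both values are therefore given for most of the 46 genes. Per kilobase of merged exons the median of the 46 genes was 1195, against 129.1 for genes with a level of at least 10, and with canonical transcripts it was 2171 against 208.6. Of the 46 genes, 24 stood in the top 5% of all genes per kilobase, and 6 in the top 1%. With canonical transcripts these counts were 23 and 8. The genes below the median of all genes per kilobase of merged exons were IFITM2 and ISG20.

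**Figure D2:**
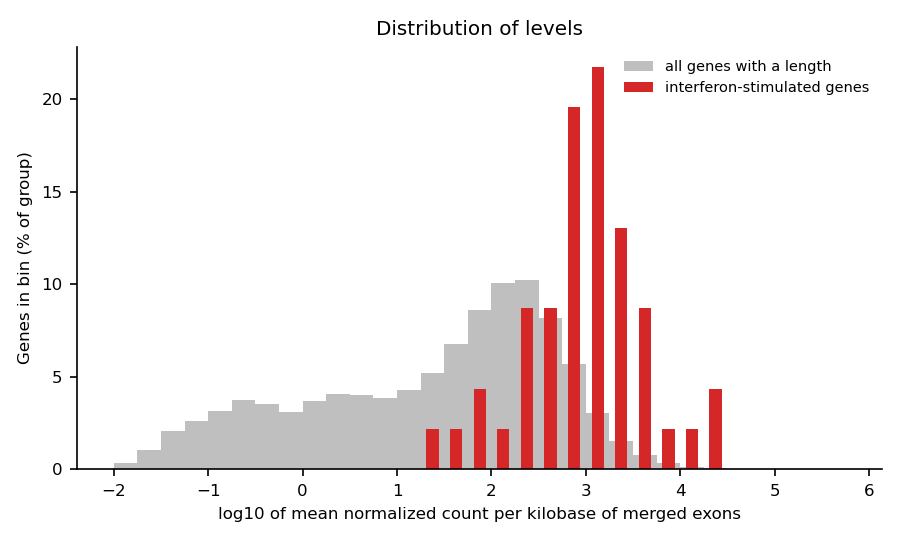
Distribution of levels per kilobase of merged exons on a log10 axis, as percent of each group, for all genes with a length (grey) and the 46 interferon-stimulated genes (red). The median of the interferon-stimulated genes was 1195, against 50.1 for all genes.

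The membrane proteins of the IFITM family and BST2 spanned the widest range. The IFITM proteins hinder the fusion of viruses with the cell, and BST2, or tetherin, holds budding virions at the surface. IFITM1 had a level of 31369, or 18829 per kilobase of merged exons and 46960 per kilobase of the canonical transcript. BST2 had 11632 and 12794 per kilobase, and IFITM3 had 4806 and 22369. IFITM1 (chr11:310041-315272, plus strand, GRCh38), IFITM2 (chr11:303655-309397, plus strand) and IFITM3 (chr11:319676-329475, minus strand) are neighbours. IFITM2 had a level of only 49.7, or 30.9 and 49.4 per kilobase. Per kilobase of merged exons, IFITM1 stood 609 times above IFITM2 and IFITM3 155 times above it, and with canonical transcripts these ratios were 951 and 453. The level of IFITM2 came from 308 reads over the 6 libraries (95% Poisson interval 275 to 344), and the 6 unlabelled libraries lay between 46.6 and 53.6 normalized reads. These paralogs share sequence. Of the 50-base windows of IFITM2, 14.6% also occur in IFITM1 and 12.4% in IFITM3, and of those of IFITM1, 12.5% occur in IFITM2 and 15.7% in IFITM3. Another annotated gene overlaps 21.1% of the exon bases of IFITM1 on the same strand. How much the counting of shared reads set these ratios was not tested.

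Some IFIT proteins recognise the 5′ ends of foreign RNA. The IFIT genes lie together on chromosome 10, from IFIT2 (chr10:89283694-89309271) to IFIT5 (chr10:89414568-89421605). IFIT3 was the highest of them per kilobase with a level of 18666, or 3684 and 7810 per kilobase of merged exons and of the canonical transcript, and IFIT5 the lowest with 6993, or 1601 and 1736. IFIT1 had 3629 and 3892 per kilobase, and IFIT2 had 3117 and 3974. The enzymes OAS1, OAS2 and OAS3 make the oligoadenylates that activate RNase L. OAS2 led the OAS group, which includes OASL, with a level of 24078, or 2144 and 5210 per kilobase. OASL had 1249 and 2414 per kilobase, and OAS3 had 925 and 2530. OAS1 had a level of 7762. The order within the OAS group depended on the length, since OAS1 was the lowest per kilobase of merged exons (596) and the second highest with canonical transcripts (4759).

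The MX genes are neighbours on chromosome 21 (MX2, chr21:41361999-41409393, and MX1, chr21:41420020-41470071), and their levels were far apart. MX1 had 2508 per kilobase of merged exons and 16248 per kilobase of the canonical transcript, and MX2 had 115 and 493. MX1 thus stood 21.7 or 33.0 times above MX2. The RNA-acting enzymes were also spread widely. ADAR, which deaminates adenosine in double-stranded RNA, had a level of 23430, or 1914 and 3545 per kilobase. EIF2AK2, the kinase PKR, had a level of 6325, or 573 and 634 per kilobase. ISG20, an exonuclease, had a level of 308, or 42.8 and 194 per kilobase.

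Among the RIG-I-like receptors, which sense viral RNA in the cytoplasm, DDX58 (RIG-I) had a level of 15541 and IFIH1 (MDA5) of 5958, whereas DHX58 (LGP2) had 335. DDX58 is uncertain, because 43.2% of its exon bases are overlapped by another annotated gene on the same strand. Per kilobase of merged exons DDX58 had 1502, IFIH1 had 1140 and DHX58 had 87.5, and with canonical transcripts they had 3358, 1664 and 129.

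The genes of ISG15 conjugation were led by ISG15 itself, with 6217 per kilobase of merged exons and 8462 per kilobase of the canonical transcript. HERC5, the main ligase of ISG15, had a level of 8333, or 1749 and 2373 per kilobase, and its neighbour HERC6 had 764 and 1169 per kilobase. UBE2L6, the conjugating enzyme, had 1596 and 2699. USP18, which removes ISG15 and also restrains the type I receptor, was lowest with a level of 1600, or 391 and 861 per kilobase, and 23.1% of its 50-base windows also occur in other transcripts.

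DTX3L and PARP9, a ubiquitin ligase and its partner, had levels of 17655 and 5993 and share a promoter region. Per kilobase of merged exons DTX3L had 3061 and PARP9 had 671, and with canonical transcripts 3061 and 1968. PARP14, further along chromosome 3, had a level of 13340, or 1298 and 1734 per kilobase. The pair RSAD2 and CMPK2 also lies head to head, on chromosome 2. RSAD2, which encodes the antiviral enzyme viperin, had a level of 12850, or 2271 and 3772 per kilobase, and CMPK2, a mitochondrial nucleotide kinase, had 1868, or 426 and 604. SAMD9 and SAMD9L, paralogs on chromosome 7, were close to each other at levels of 5679 and 5463, or 828 and 684 per kilobase of merged exons. With canonical transcripts they had 834 and 764.

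SP100 and the TRIM genes were lower. SP100, a nuclear body protein, had a level of 4725, or 334 per kilobase of merged exons and 873 per kilobase of the canonical transcript. TRIM21, an antibody receptor of the cytosol, had 451 per kilobase by either length, and TRIM22 had 83.4 and 363 per kilobase.

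Of the other effectors, IFI6 had the highest value of all 46 genes per kilobase of merged exons, at 27203, and was second with canonical transcripts at 31357. Another annotated gene overlaps 23.1% of its exon bases on the same strand. IFI44 had 3955 and 4792 per kilobase. IFI27 had 1544 and 8827, so that it entered the 10 highest genes only with canonical transcripts. IFI44L, the neighbour of IFI44 on chromosome 1, had 1549 and 3084. EPSTI1 had 963 and 1526 per kilobase, and IFI35 had a level of 1920, or 981 and 1625. XAF1 had a level of 8393, or 1269 and 2456 per kilobase, and 38.3% of its exon bases lie opposite another gene.

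The transcription factors had a lower median than the 46 genes as a whole. IRF1 had a level of 2908, STAT2 of 2177, IRF9 of 1971 and IRF7 of 573. Another annotated gene overlaps 23.9% of the exon bases of IRF9 on the same strand. Per kilobase of merged exons all 4 lay between 219 and 305, with a median of 235, against 1195 for all 46 genes. With canonical transcripts they ran from 298 (IRF7) to 1212 (IRF9), with a median of 656 against 2171.

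**Figure D3:**
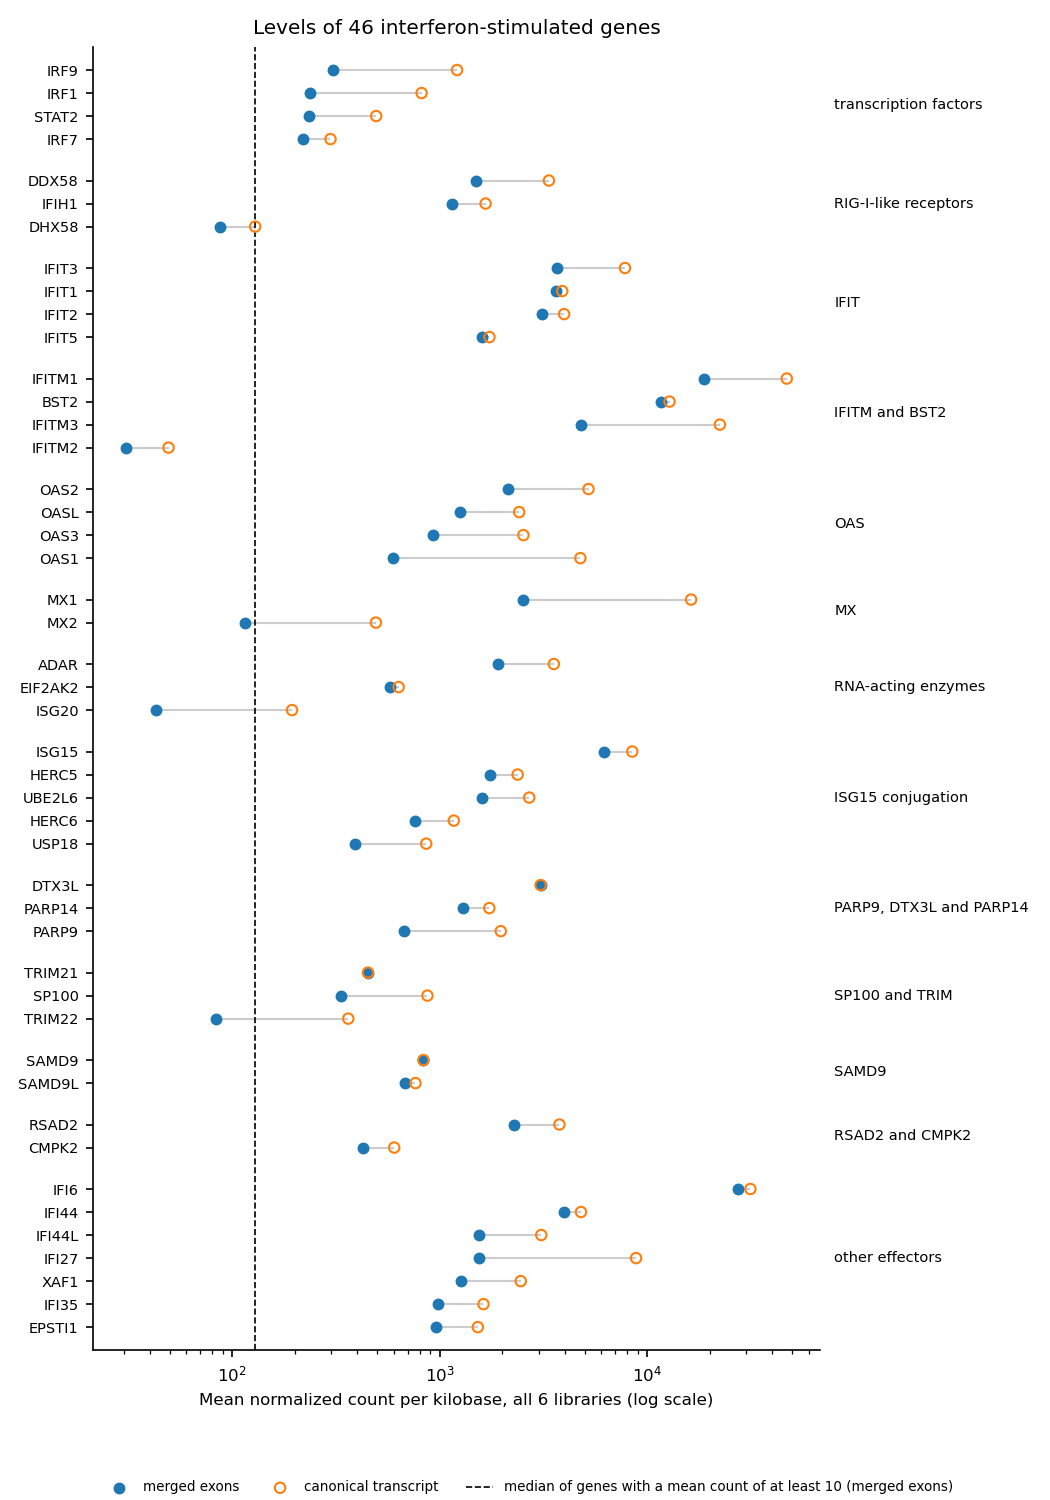
Level per kilobase of each of the 46 interferon-stimulated genes, grouped by role, on a log axis, with merged exons (filled) and the canonical transcript (open) as the length. The dashed line is the median of genes with a level of at least 10 (129.1 per kilobase of merged exons), and IFITM2, ISG20, TRIM22, DHX58 and MX2 lie to the left of it with merged exons.

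Genes with and without an ISRE core overlapped in level. The 24 genes with a core ran from 42.8 (ISG20) to 27203 (IFI6) per kilobase of merged exons, with a median of 1675. The 13 genes without one ran from 234 (STAT2) to 1914 (ADAR), with a median of 684. With canonical transcripts the medians were 3073 and 1212. For the GAS the medians per kilobase of merged exons were 1140 in the 10 genes with the motif and 1502 in the 27 without it. With canonical transcripts the order turned, to 3246 with the motif and 2456 without it.

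**Figure D4:**
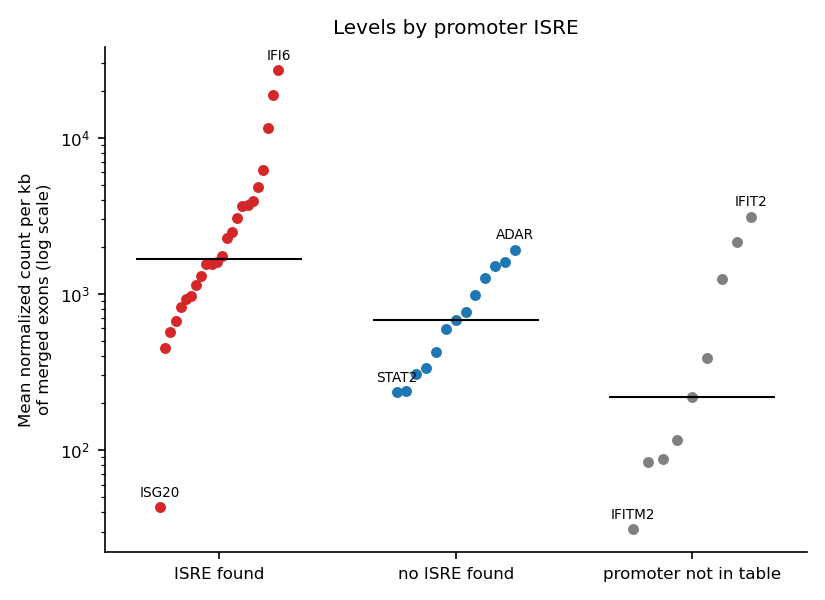
Level per kilobase of merged exons on a log axis for the 24 genes with an ISRE core, the 13 without one and the 9 whose promoter was not in the table. Each point is a gene and each line a median, which was 1675 with and 684 without a core, and the groups overlap.

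The rest of the pathway was read from gene lists made by role. Of 10 interferon genes, IFNB1, IFNE, IFNL1 and IFNL3 were listed, and IFNA1, IFNA2, IFNK, IFNW1, IFNG and IFNL2 had no row. IFNB1, the type I interferon made by most cell types, had a level of 29.6 from 175 reads (95% Poisson interval 150 to 203), and the 6 unlabelled libraries lay between 17.1 and 42.3 normalized reads. Per kilobase IFNB1 had 35.3, and the median of the 46 genes was 33.9 times higher with merged exons and 61.5 times higher with canonical transcripts. IFNE had 62 reads (47.5 to 79.5), IFNL1 had 7 (2.81 to 14.4) and IFNL3 had 1 (0.0253 to 5.57).

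The receptor chains differed widely, and IFNLR1 had no row. IFNAR1, of the type I receptor, had a level of 1918, or 122 per kilobase of merged exons and 316 per kilobase of the canonical transcript. IFNAR2, its partner, had a level of 550, or 39.6 and 135 per kilobase. IFNGR1 and IFNGR2, of the type II receptor, had 1495 and 744 per kilobase of merged exons, and 2558 and 1112 with canonical transcripts, so that IFNGR1 lay above the median of the 46 genes by either length. IL10RB, a chain of the type III receptor, had 97.9 and 405 per kilobase. Of the kinases, JAK1 had 947 and 2449 per kilobase, JAK2 had 465 and 524, and TYK2 had 119 and 239. STAT3, a factor shared with cytokine receptors of the interleukin 6 family, had 731 and 1666 per kilobase.

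All 9 genes of interferon induction were listed with a level of at least 10. CGAS, the cytosolic DNA sensor, had 167 per kilobase of merged exons and 218 per kilobase of the canonical transcript, and its adaptor STING1 (listed as TMEM173) had 160 and 355. MAVS, the adaptor of the RIG-I-like receptors, had 340 and 341, and TRIM25, a ligase acting on RIG-I, had 469 and 1014. TLR3, an endosomal sensor of double-stranded RNA, had 53.4 and 66.5, and its adaptor TICAM1 had 191 by either length. The kinases TBK1 and IKBKE stood apart, with 136 and 662 per kilobase for TBK1 and 21.3 per kilobase of merged exons for IKBKE. IRF3, their substrate, had 357 and 850. The median of the 9 genes was 167 per kilobase of merged exons.

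Among the inhibitors of signalling, the phosphatase PTPN11 was highest at 536 per kilobase of merged exons and 1187 per kilobase of the canonical transcript, and PTPN2 had 164 and 413. PIAS1 had 101 and 135, and SOCS3 had 394 by either length. SOCS1, which blocks JAK kinases, was lowest at 8.63 and 12.5 per kilobase. It came from 105 reads (85.9 to 127), and its 6 unlabelled libraries ran from 2.52 to 33.5 normalized reads.

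**Figure D5:**
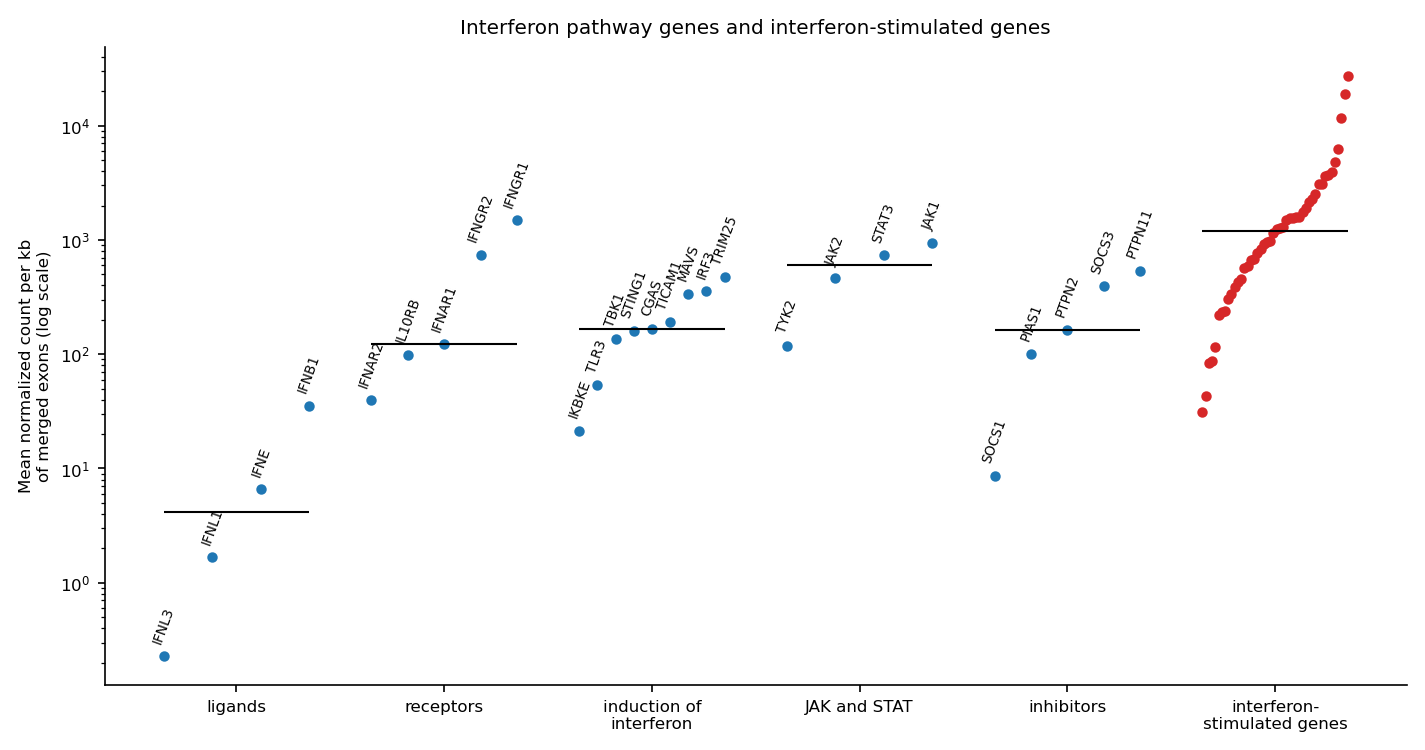
Level per kilobase of merged exons on a log axis for listed genes of the interferon pathway (blue) and the 46 interferon-stimulated genes (red). Each point is a gene and each line a median, which was 4.15 for the ligands, 598 for the JAK and STAT genes and 1195 for the interferon-stimulated genes.

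The label of the cells was checked against marker genes. The 5 mesenchymal markers had levels of 5147 (AXL), 19657 (SPARC), 28550 (CAV1), 30461 (FN1) and 47782 (VIM). Epithelial markers were low but not all at the floor, with 7 reads for EPCAM, 104 for KRT19 and 355 for CDH1, the last 2 with reads in all 6 libraries. The hormone receptor genes ESR1 and PGR had 5 reads each over the 6 libraries. HER2, which the triple-negative label also covers, was not among the markers checked. Of 4 immune markers, CD3E had no row, LYZ had 2 reads, and CD14 and PTPRC had levels of 24.0 and 44.7. The endothelial markers PECAM1 and CDH5 had 18 reads and 1 read. The part of other cells in the levels of the 46 genes was not tested. WDR5, the target of the hairpin, had a level of 1143, and its knockdown was not tested here. The 6 libraries had size factors between 0.737 and 1.34, which were recovered without their labels.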

How the data were processed

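RNA-seq was performed on 3 vehicle and 3 DOX libraries of BT-549/tet-WDR5shRNA cells. Per the labels, the RNA was isolated with a column kit, where the study's methods name Trizol, and libraries were stranded and poly(A)-selected. The authors aligned reads to GRCh38 with STAR and normalized gene counts with DESeq2. The gene counter is not given in the sources used here. The study's methods add a suffix to the name of the genome, and whether it marks an annotation release is not stated. From each gene's normalized counts the authors deposited a signal, the mean over all 6 libraries. The other deposited columns hold the authors' comparison of DOX with vehicle (log2 fold change, its standard error, the Wald statistic, p-value and adjusted p-value). They were not used. The planned comparison of DOX with vehicle needed values of single libraries, which none of the columns holds, so it could not be run.

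Symbols were matched to GENCODE 44 directly (17729), by another symbol (593) or not at all (1470), which gave 18322 genes a length. The annotation may differ from that of the authors. The lowest levels fall on 6 steps, each the worth of 1 read in 1 library. With these steps 5358 of 5358 genes with a level under 5 came out as whole reads within 1e-12, and the method was tested on simulated data. Reads of low genes named here were recovered in the same way, within 2e-13, with exact Poisson intervals (95%) that cover counting error only. For higher genes the counting error rests on the least number of reads that the level allows.

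The genes named are the highest and lowest by level in each role group, the 10 highest per kilobase, and fixed lists of pathway genes and cell markers, of which 2 genes are not reported here. Other members named beside these were chosen after their values were seen. The 46 genes and the lists were chosen with earlier results of these data known. Computation used Python 3.11.15 with pandas 2.3.3, numpy 2.4.6 and scipy 1.17.1, and plots were drawn with matplotlib 3.10.9.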

Additional observations from a re-analysis of the deposited data

How the results depend on the processing

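No paired analysis was possible because the table holds no values of single libraries, and no library could be left out for the same reason. With a minimum level of 1, 50 or 100 in place of 10, the number of the 46 genes at or above it was 46, 45 and 45. Of all genes, 83.9%, 58.9% and 54.6% were at or above these limits. The number above the median of all genes per kilobase was 44 with merged exons, 44 with the longest transcript, 45 with the canonical transcript and 45 with no length. Against the median of genes with a level of at least 1 or at least 10 it was 43 and 41, and against that of the 5000 highest genes it was 34. The canonical transcript and the last background were chosen after seeing the data. An ISRE core was found in 24 of 37 genes on either strand, in 17 on the forward strand alone and in 20 with 1 more fixed base. The shares over all genes with a promoter were 4.38%, 2.09% and 0.952%. The levels are means over vehicle and DOX, so the difference between the groups cannot be read from them. The spread between libraries was read only for low genes whose reads were recovered, and without the labels of the libraries.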

Other observations

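Further gene groups that interferon is known to induce were read after the values of the 46 genes had been seen. All 13 genes of MHC class I antigen presentation were listed, with a median of 1077 per kilobase of merged exons. B2M, the light chain of class I molecules, had a level of 43568, rank 33 of all genes, and HLA-C and HLA-B had 14610 and 11072. Of the immunoproteasome genes, PSMB8 had a level of 2029, PSMB9 of 621 and PSMB10 of 373. Per kilobase of merged exons NLRC5 was the lowest of the 13 genes, at 71.1. HLA genes are close paralogs, so the split of reads between them is uncertain. Of 5 guanylate-binding protein genes, GBP1 was highest at 2274 per kilobase of merged exons and GBP3 lowest at 169.

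Chemokine genes were unequal. CCL5 had a level of 2214, or 1623 per kilobase of merged exons, and CXCL10 a level of 66.9, or 56.9 per kilobase, whereas CXCL11 came from 70 reads and CXCL9 from 2 reads over the 6 libraries. The MHC class II genes were low but not all at the floor. CIITA, their master regulator, had 99 reads and CD74 had 82, or levels of 16.7 and 14.3. HLA-DRA had 18 reads and HLA-DRB1 had 4.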
